A study of Mus musculus with 9 samples.

Results

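The genes described here are 10 components of the Notch signaling system of the mouse: the receptors Notch1, Notch2, Notch3 and Notch4, the ligands Dll1, Dll4, Jag1 and Jag2, and the target genes Hes1 and Hey1. They were chosen by symbol from the 18349 genes listed for each library, all 10 were found, and all 10 passed the filter on low counts that left 15010 genes for testing. Bulk RNA was sequenced from irises of 3 groups of mice, with 3 libraries in each group and 3 irises of identical genotype pooled in each library. The libraries of a group are thus separate pools of animals, and p-values measure the spread between such pools. The Sham group consisted of VEGFR3fl/fl mice, whose VEGFR3 gene is flanked by loxP sites, and their corneas received PBS. The injured VEGFR3fl/fl group received corneal alkali injury (CAI), for which the cornea was exposed to sodium hydroxide (1 M, 0.5 μL) during 60 seconds. The injured VEGFR3iLECko group (Vegfr3fl/fl;Prox1CreERT2) received the same injury and carried, besides the floxed alleles, a tamoxifen-inducible Cre recombinase driven by Prox1, so that deletion is directed to Prox1-expressing cells such as lymphatic endothelial cells (LECs). All groups were operated on at 6 weeks of age, and the labels give tamoxifen at 80 mg/kg on days 13 to 17 after injury for the mice without setting any group apart. Irises were collected at 10 weeks.

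Notch receptors are single-pass membrane proteins that are activated by ligands on neighboring cells. Ligand binding exposes the receptor to ADAM proteases and then to γ-secretase, and the released intracellular domain joins the DNA-binding protein RBPJ and a Mastermind coactivator to switch on targets such as the Hes and Hey repressors. In blood vessels, Dll4 on endothelial tip cells restrains sprouting of their neighbors through Notch1, Jag1 counters this signal, Notch4 is found mainly in endothelium, and Notch3 is the receptor of mural cells.

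In the GRCm38 assembly of RefSeq, which corresponds to the mm10 build named in the submitters' processing notes, the receptor genes lay at chr2:26457902-26503822 (Notch1, minus strand, NCBI Gene ID 18128), chr3:98013538-98150367 (Notch2, plus strand, 18129), chr17:32120820-32166896 (Notch3, minus strand, 18131) and chr17:34564286-34588543 (Notch4, plus strand, 18132). The ligand genes lay at chr17:15367354-15376932 (Dll1, minus strand, 13388), chr2:119325784-119335666 (Dll4, plus strand, 54485), chr2:137081451-137116520 (Jag1, minus strand, 16449) and chr12:112907803-112929812 (Jag2, minus strand, 16450). The targets lay at chr16:30065357-30067796 (Hes1, plus strand, 15205) and chr3:8663359-8667038 (Hey1, minus strand, 15213). GENCODE M21 places exons of transcripts on the opposite strand over exons of Notch1, Notch3, Dll1 and Dll4, and an exon of a further transcript on the same strand over Notch2. Whether strand was used in counting is not given in the sources used here, and reads of these pairs cannot be told apart.

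RefSeq promoters on GRCm38.p6 matched 8 of the 10 genes, with 9 entries because Dll1 had a pair of start sites. The 250 bases before the start of the transcript that RefSeq uses are shown for Notch4 (chr17:34564045-34564294, plus strand) and Dll4 (chr2:119325534-119325783, plus strand), the receptor and the ligand with the highest fold changes after injury, and for the upstream start of Dll1 (chr17:15376933-15377182, minus strand), the ligand with the lowest. Each is written 5′ to 3′ on the strand of its gene, and capitals mark AGGAAG or its reverse complement CTTCCT, a core motif of ETS factors.
Notch4: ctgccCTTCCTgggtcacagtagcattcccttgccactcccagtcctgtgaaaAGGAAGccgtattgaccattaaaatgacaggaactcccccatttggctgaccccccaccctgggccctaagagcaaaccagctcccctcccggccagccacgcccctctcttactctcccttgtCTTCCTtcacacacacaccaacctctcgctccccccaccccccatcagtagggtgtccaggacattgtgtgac
Dll4: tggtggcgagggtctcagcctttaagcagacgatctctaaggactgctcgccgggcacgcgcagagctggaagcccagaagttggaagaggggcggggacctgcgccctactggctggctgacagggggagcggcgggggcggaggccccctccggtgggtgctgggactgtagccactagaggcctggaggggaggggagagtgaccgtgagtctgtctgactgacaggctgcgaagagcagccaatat
Dll1: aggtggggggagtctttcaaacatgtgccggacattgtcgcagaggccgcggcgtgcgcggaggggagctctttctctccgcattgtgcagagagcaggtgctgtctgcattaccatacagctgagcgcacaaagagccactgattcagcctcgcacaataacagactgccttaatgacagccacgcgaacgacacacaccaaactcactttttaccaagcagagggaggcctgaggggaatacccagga
AGGAAG occurred on either strand in 29.5% of the 32851 promoter windows of the same length, and in 2 of the 9 entries of the Notch genes. The Notch4 window held it 3 times, and the window of the downstream Dll1 start held it 1 time. TGGGAA, the core bound by RBPJ, occurred in 21.6% of all windows and in 0 of the 9, and the E-box CACGTG in 6.02% of all windows and in 0 of the 9. No matches of different motifs overlapped in these windows. A match is not a binding site, and the lack of one says only that these letters are not in this window.

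Flt4, the mouse gene for VEGFR3, ranged from 13.4 to 15.6 CPM in Sham (counts scaled to library size after TMM normalization), from 16.8 to 23.0 CPM in injured VEGFR3fl/fl and from 20.9 to 27.9 CPM in the libraries labelled VEGFR3iLECko. It was therefore not lower in the labelled knockouts, which are called labelled VEGFR3iLECko from here on, and whole-iris RNA does not separate LECs from other cells. Total counts per library lay between 16617187 and 18306359. The defining blood endothelial markers Pecam1 and Cdh5 were present in every library, at 42.6 to 314 and 72.0 to 360 CPM, whereas the LEC marker Prox1 reached at most 4.49 CPM. After injury, 13 of 16 blood endothelial markers rose and 1 fell, 5 of 7 mural cell, 10 of 10 macrophage, 6 of 6 T cell and 4 of 6 fibroblast markers rose, and 7 of 7 pigment cell and 4 of 6 smooth muscle markers fell. Of the lymphatic markers 3 of 7 rose and 1 fell, of the Schwann cell markers 1 of 6 rose and 5 fell, of the lens markers 1 of 3 rose and 1 fell, of the corneal epithelial markers 3 of 4 fell, and of the ciliary body (2) and neural retina (5) markers 0 were called. The lymphatic gene Ccl21a, called higher, had 92.3 CPM in injured VEGFR3fl/fl replicate 1 and 4.62 and 0 CPM in replicates 2 and 3, and the corneal gene Krt5, called lower, had 18.2, 8.36 and 0.394 CPM in Sham and overlapped between the groups, as did Krt15. Single markers changed on the log2 scale by 0.51 (Kdr, endothelium), 1.73 (Pdgfrb, pericytes), 3.15 (Adgre1, macrophages) and -1.66 (Acta2, smooth muscle). In bulk RNA, fewer cells of a type and less RNA per cell cannot be told apart. Injured VEGFR3fl/fl replicate 1 stood apart from replicates 2 and 3, with 4816 CPM of the fibroblast gene Dcn against 1026 and 1898 CPM and 479 CPM of the pericyte gene Rgs5 against 1082 and 873 CPM, and results that turn on it are given with and without it. Summed neural retina markers varied from 15.1 to 856 CPM without regard to group, and all 7 of the Notch genes called after injury kept their call with this level as a covariate.

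After CAI, 4 Notch genes rose and 3 fell with an adjusted p below 0.05. The test was the quasi-likelihood F test of edgeR, with p-values adjusted over all tested genes after Benjamini and Hochberg. Notch4, Dll4, Jag1 and Notch1 were the genes that rose, all by more than 1.5-fold (Notch1 by 1.51-fold), and Dll1, Hey1 and Notch2 were the genes that fell, of which Dll1 alone fell by more than 1.5-fold. Of all genes tested, 60% were called in this comparison, 31.5% as higher and 28.4% as lower, so that 7 of 10 is a share near the background. With the 1.5-fold limit added, 39.7% of all genes were called. The Sham and injured VEGFR3fl/fl libraries did not overlap for the same 7 genes, whereas 66.3% of all genes did not overlap, 33.9% with higher and 32.4% with lower values after injury. The median log2 fold change was 0.39 over the 10 genes and 0.01 over all genes tested.

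Among the receptors, Notch4 changed most. It measured 26.8, 30.4 and 27.9 CPM in Sham replicates 1 to 3, 40.6, 96.6 and 77.7 CPM in the injured VEGFR3fl/fl libraries and 65.9, 73.1 and 83.9 CPM in the labelled VEGFR3iLECko libraries. All 6 injured libraries lay above all Sham libraries, and injured VEGFR3fl/fl replicate 1 was the lowest of the 6. The log2 fold change of injured VEGFR3fl/fl over Sham was 1.34 (standard error 0.26, edgeR adjusted p = 0.00188), a 2.53-fold rise. It ranged from 1.06 without injured replicate 2 to 1.62 without injured replicate 1, and it was called in all 22 alternative settings.

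Notch1, the broadly expressed receptor that receives the Dll4 signal in endothelium, measured 45.6, 38.3 and 47.1 CPM in Sham, 57.0, 71.0 and 70.0 CPM in injured VEGFR3fl/fl and 66.8, 75.7 and 77.2 CPM in labelled VEGFR3iLECko irises. The Sham libraries were again the 3 lowest of the 9. Its log2 fold change after injury was 0.60 (standard error 0.11, edgeR adjusted p = 0.00152), or 1.51-fold.

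Notch3, the mural cell receptor, had 70.0, 56.9 and 55.7 CPM in Sham, 56.8, 100.8 and 95.9 CPM in injured VEGFR3fl/fl and 92.1, 112.0 and 100.5 CPM in labelled VEGFR3iLECko irises. Injured VEGFR3fl/fl replicate 1 fell inside the Sham range, whereas the other injured libraries of both genotypes lay above it. The log2 fold change of 0.47 (standard error 0.20) did not pass the test (edgeR adjusted p = 0.0656). It was 0.69 without injured replicate 1, with an edgeR adjusted p of 0.000948, and DESeq2 called it on all libraries with an adjusted p of 0.0395. Of the mural cell markers, Rgs5, Cspg4, Higd1b and Ndufa4l2 had a like order among the injured VEGFR3fl/fl libraries. Pdgfrb (444, 492 and 419 CPM), Kcnj8 and Abcc9 did not. The part of mural cells in the Notch3 values was not tested.

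Notch2, the receptor with the highest counts, moved the other way. It had 165.8, 129.2 and 174.4 CPM in Sham, 127.3, 116.1 and 127.8 CPM in injured VEGFR3fl/fl and 136.8, 155.1 and 146.7 CPM in labelled VEGFR3iLECko irises. The highest injured VEGFR3fl/fl library lay only just under the lowest Sham library, and all 3 labelled VEGFR3iLECko libraries lay inside the Sham range. The log2 fold change after injury was -0.34 (standard error 0.11, edgeR adjusted p = 0.0265). This call was lost without Sham replicate 1 (edgeR adjusted p = 0.0878), Sham replicate 3 (0.108) or injured replicate 2 (0.0830), and in a fit of the 6 compared libraries alone (0.0571).

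**Figure D1:**
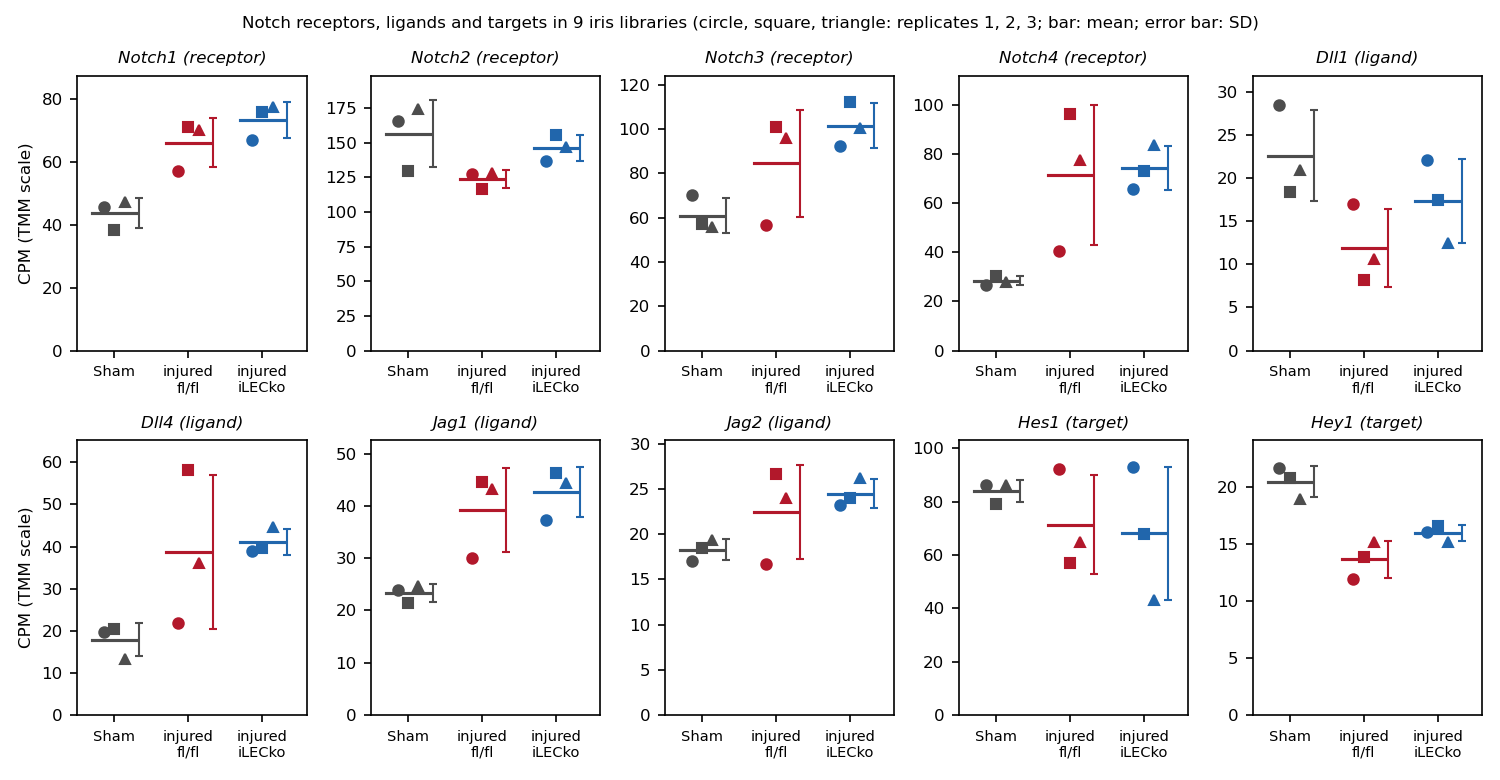
CPM on the TMM scale (vertical axes, starting at 0) of the 10 Notch genes in each of the 9 libraries, by group along the horizontal axes. Symbols mark replicates 1 to 3, bars the group mean and error bars the SD of 3 libraries. Notch1, Notch4, Dll4 and Jag1 lie above their Sham values in all 6 injured libraries, Hey1 lies below them in all 6, and replicate 1 of injured VEGFR3fl/fl is the lowest injured library for Notch1, Notch3, Notch4, Dll4, Jag1 and Jag2.

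Among the ligands, Dll4 and Dll1, which belong to the same Delta-like family, changed in opposite directions. Dll4, the endothelial ligand, had 19.7, 20.5 and 13.3 CPM in Sham, 22.0, 58.2 and 36.0 CPM in injured VEGFR3fl/fl and 38.8, 39.7 and 44.6 CPM in labelled VEGFR3iLECko irises. Its injured VEGFR3fl/fl libraries spread widely, with a coefficient of variation of 47.2%, against 7.53% in labelled VEGFR3iLECko libraries, and replicate 1 lay close to the highest Sham library. After injury the log2 fold change was 1.12 (standard error 0.31, edgeR adjusted p = 0.0114), or 2.17-fold. It ranged from 0.70 without injured replicate 2 to 1.40 without injured replicate 1 and was called in all 22 alternatives.

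Dll1, a ligand used widely in development, had 28.5, 18.4 and 20.9 CPM in Sham, 16.99, 8.19 and 10.7 CPM in injured VEGFR3fl/fl and 22.1, 17.5 and 12.4 CPM in labelled VEGFR3iLECko irises. The Sham and injured VEGFR3fl/fl groups did not overlap, whereas the labelled VEGFR3iLECko libraries overlapped both. After injury the log2 fold change was -0.92 (standard error 0.30, edgeR adjusted p = 0.0238), 1.89-fold lower than in Sham. The edgeR adjusted p was 0.0929 without Sham replicate 1, 0.0715 without injured replicate 2, 0.0697 without injured replicate 3 and 0.0508 with Y-linked expression in the model, and the log2 fold changes in these fits lay between -0.71 and -0.87.

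Jag1, which opposes Dll4 in sprouting endothelium, rose from 24.0, 21.5 and 24.6 CPM in Sham to 30.0, 44.6 and 43.2 CPM in injured VEGFR3fl/fl libraries and measured 37.3, 46.4 and 44.3 CPM in labelled VEGFR3iLECko libraries. No injured library of either genotype reached down to the Sham range. Its log2 fold change after injury was 0.75 (standard error 0.15, edgeR adjusted p = 0.00233), or 1.68-fold.

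Jag2, the second Jagged ligand, had 17.1, 18.5 and 19.3 CPM in Sham, 16.7, 26.6 and 24.1 CPM in injured VEGFR3fl/fl and 23.2, 24.0 and 26.2 CPM in labelled VEGFR3iLECko irises. Injured VEGFR3fl/fl replicate 1 was the lowest of all 9 libraries, and the other injured libraries lay above the Sham group. The log2 fold change of 0.30 (standard error 0.16, edgeR adjusted p = 0.128) became 0.47 with an edgeR adjusted p of 0.00288 when injured replicate 1 was left out. Without that library 6 of the 10 genes were called higher and 3 lower, and 58.7% of all genes were called.

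Neither target was called higher after injury: Hey1 fell and Hes1 was not called. Hey1, a repressor induced by Notch in endothelium and other cells, had 21.7, 20.8 and 19.0 CPM in Sham, 12.0, 13.9 and 15.2 CPM in injured VEGFR3fl/fl and 16.1, 16.6 and 15.2 CPM in labelled VEGFR3iLECko irises. All injured libraries lay below all Sham libraries. It changed after injury by -0.58 on the log2 scale (standard error 0.11, edgeR adjusted p = 0.00134), 1.498-fold lower, and it was called in all 22 alternatives. Hes1, a repressor that many signals besides Notch can induce, had 86.4, 79.1 and 86.4 CPM in Sham, 92.4, 56.9 and 64.9 CPM in injured VEGFR3fl/fl and 93.0, 68.1 and 43.3 CPM in labelled VEGFR3iLECko irises. In both injured groups replicate 1 lay above the Sham range and the other 2 libraries below it. Its log2 fold change after injury was -0.23 (standard error 0.26, edgeR adjusted p = 0.457), with a 95% interval from -0.81 to 0.35, and it was called in 0 of 22 alternatives.

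In labelled VEGFR3iLECko against injured VEGFR3fl/fl irises, 0 of the 10 genes were called by edgeR, 0 had an unadjusted p under 0.05, and 0 were called by DESeq2 or limma-voom. Of all genes tested, 1.56% were called by edgeR and 24.5% had an unadjusted p under 0.05. The groups did not overlap for Notch2 and Hey1, both higher in labelled VEGFR3iLECko libraries, and of all genes tested 26.7% did not overlap, 12.4% with higher values and the rest with lower. Both genes had fallen after injury, in a comparison that shares the injured VEGFR3fl/fl libraries. Notch2 had a log2 fold change of 0.24 (95% interval -0.01 to 0.49, edgeR adjusted p = 0.222) and Hey1 of 0.22 (-0.02 to 0.47, edgeR adjusted p = 0.236). For Dll1 it was 0.54 (-0.14 to 1.21, edgeR adjusted p = 0.289).

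The intervals leave room for sizeable differences of the variable genes in either direction. For Dll4 the log2 fold change of labelled VEGFR3iLECko over injured VEGFR3fl/fl was 0.08 with a 95% interval of -0.59 to 0.76, and for Notch4 it was 0.05 with an interval of -0.52 to 0.63. Hes1 had a value of -0.07 and an interval of -0.65 to 0.51. The intervals of Notch1 (0.15, from -0.10 to 0.40), Jag1 (0.12, from -0.22 to 0.46) and Jag2 (0.12, from -0.23 to 0.47) were narrower, and Notch3 lay at 0.27 (-0.18 to 0.71). The direction for Notch4, Dll4, Jag1, Jag2 and Hes1 turned when single libraries were left out, so no direction is given for them. Of the macrophage markers, 7 of 10 were called lower in labelled VEGFR3iLECko irises, and of the lymphatic markers 1 of 7 was called higher (Reln, log2 fold change 0.75). No marker of the other lists was called. Calls between the injured groups depended on the fit. On the 6 compared libraries alone edgeR called 0 of 14677 genes, and with Y-linked expression in the model 0 higher and 2 lower of 15010. The 6 T cell markers had a median log2 fold change of -0.81, against -0.69 for the macrophage markers. The part of these differences in the Notch values was not tested.

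**Figure D2:**
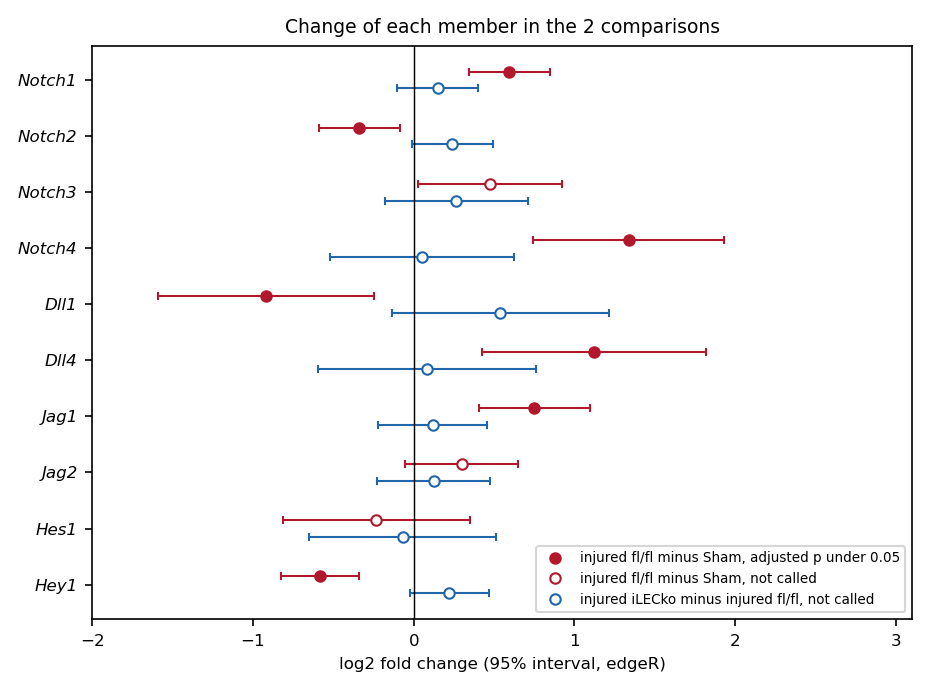
Log2 fold changes of the 10 Notch genes (horizontal axis) with 95% intervals from edgeR, for injured VEGFR3fl/fl minus Sham in red and labelled VEGFR3iLECko minus injured VEGFR3fl/fl in blue. Filled points have an adjusted p under 0.05: the 7 called after injury run from -0.92 for Dll1 to 1.34 for Notch4, and all 10 blue points are open, with intervals that include 0.

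Injured VEGFR3iLECko irises were also compared with Sham. This comparison shares the Sham libraries with the first and the labelled VEGFR3iLECko libraries with the second, so the values are only set side by side. By edgeR 6 genes were higher and 1 lower, where 54.5% of all genes tested were called, 28.1% as higher and 26.3% as lower. The log2 fold changes over Sham were 1.39 for Notch4, 1.20 for Dll4, 0.87 for Jag1, 0.74 for Notch1, 0.74 for Notch3 and 0.42 for Jag2, and -0.36 for Hey1. Notch2 (-0.10), Dll1 (-0.38) and Hes1 (-0.30) were not called. With Y-linked expression in the model, calls fell over all 15010 genes tested, to 2693 higher and 2056 lower from 4222 and 3952. In that fit Notch1 alone remained among the 6 (edgeR adjusted p = 0.0383). The edgeR adjusted p was 0.0746 for Notch4, 0.0773 for Jag1, 0.111 for Dll4, 0.337 for Notch3 and 0.430 for Jag2. The log2 fold changes in the same fit were 1.21 for Notch4, 1.26 for Dll4 and 0.67 for Jag1. Jag2 was called in 12 of 22 alternatives.

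Ratios of 2 members within a library do not depend on scaling between libraries. The ratios of Dll4 to Dll1 and of Notch4 to Notch2 each set a gene called higher after injury against one called lower. They therefore restate these changes and are no separate result. Dll4 had fewer counts than Dll1 in Sham replicates 1 and 3, at ratios of 0.690 and 0.638, and slightly more in replicate 2, at 1.12. In the injured VEGFR3fl/fl libraries Dll4 had 1.29, 7.09 and 3.37 times the counts of Dll1, and in labelled VEGFR3iLECko libraries 1.75, 2.27 and 3.58 times. The Sham group did not overlap with either injured group, and the geometric mean of the ratio was 3.98-fold higher in injured VEGFR3fl/fl than in Sham irises (exact permutation test, two-sided, p = 0.1, the smallest that 3 against 3 libraries allow, and 0.5 after Benjamini-Hochberg adjustment over 10 ratio tests).

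The ratio of Notch4 to Notch2 counts was 0.162, 0.236 and 0.160 in Sham, 0.319, 0.832 and 0.608 in injured VEGFR3fl/fl and 0.482, 0.471 and 0.572 in labelled VEGFR3iLECko libraries. It was 2.98-fold higher after injury without overlap (exact permutation test, two-sided, p = 0.1, adjusted p = 0.5). The ratios of Dll4 to Jag1, Notch1 to Notch3 and Hey1 to Hes1 overlapped between Sham and injured VEGFR3fl/fl libraries. Between the injured groups all 5 ratios overlapped.

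**Figure D3:**
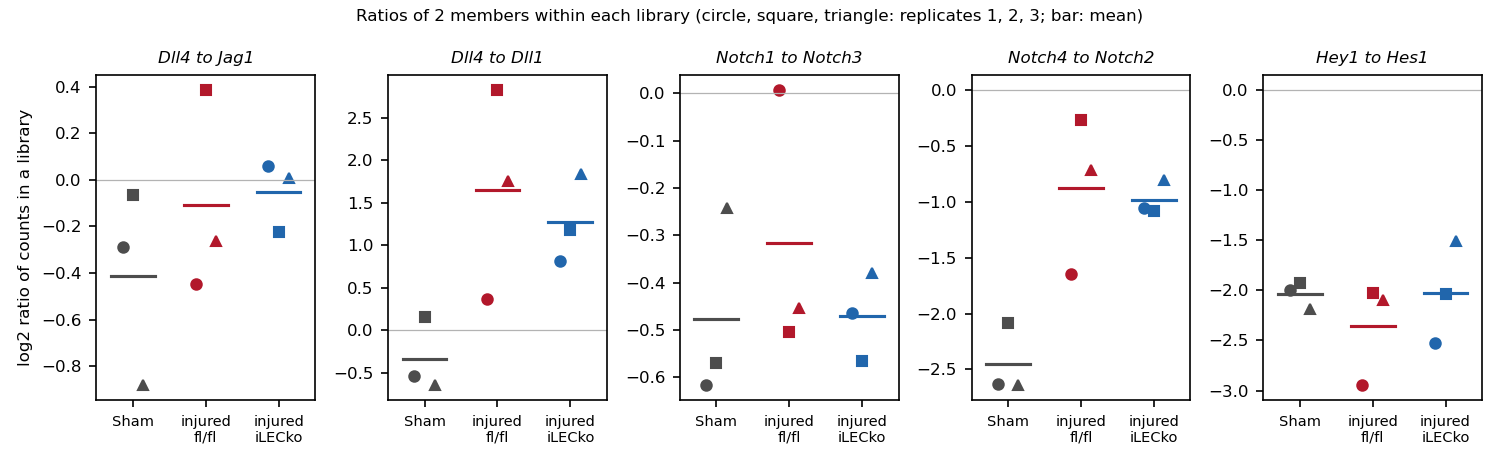
Log2 ratio of the counts of 2 Notch genes in each library (vertical axes, each with its own range), by group along the horizontal axes. Symbols mark replicates 1 to 3, bars the group mean and the grey line equal counts. Dll4 to Dll1 and Notch4 to Notch2 lie higher in all 6 injured libraries than in Sham, and the other 3 ratios overlap between Sham and injured VEGFR3fl/fl.

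Because endothelial markers rose with injury, each gene was also set against them within each library. The mean of the 16 blood endothelial genes rose by 1.21 on the log2 scale, a 2.31-fold rise, Cdh5 by 2.05 and Pecam1 by 2.61. Relative to the 16-gene mean, Notch4 differed from Sham by 0.04 and Dll4 by -0.17, with overlapping groups (exact permutation test, two-sided, p = 1 and p = 0.7). The other 8 genes were lower relative to endothelium after injury without overlap, as were 78.8% of all genes tested, so that 8 of 10 is a share near the background. The differences were -0.48 for Jag1, -0.61 for Notch1, -0.77 for Notch3, -0.94 for Jag2, -1.47 for Hes1, -1.53 for Notch2, -1.79 for Hey1 and -2.17 for Dll1 (exact permutation test for each, two-sided, p = 0.1, the smallest possible). Cdh5 and Pecam1 rose more than any of the 10 genes, so each gene lay below them, Notch4 at -0.81 and -1.37 and Dll4 at -1.02 and -1.58. Both markers also rose more than the 16-gene mean, so this position follows from their choice as references. Kdr, of the same list, had an edgeR log2 fold change of 0.51, less than Notch4 (1.34), Dll4 (1.12), Jag1 (0.75) and Notch1 (0.60). Cldn5, also of the list, fell (-0.79). Levels relative to Kdr or Cldn5 alone were not tested. The cells that made the transcripts were not identified here.

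**Figure D4:**
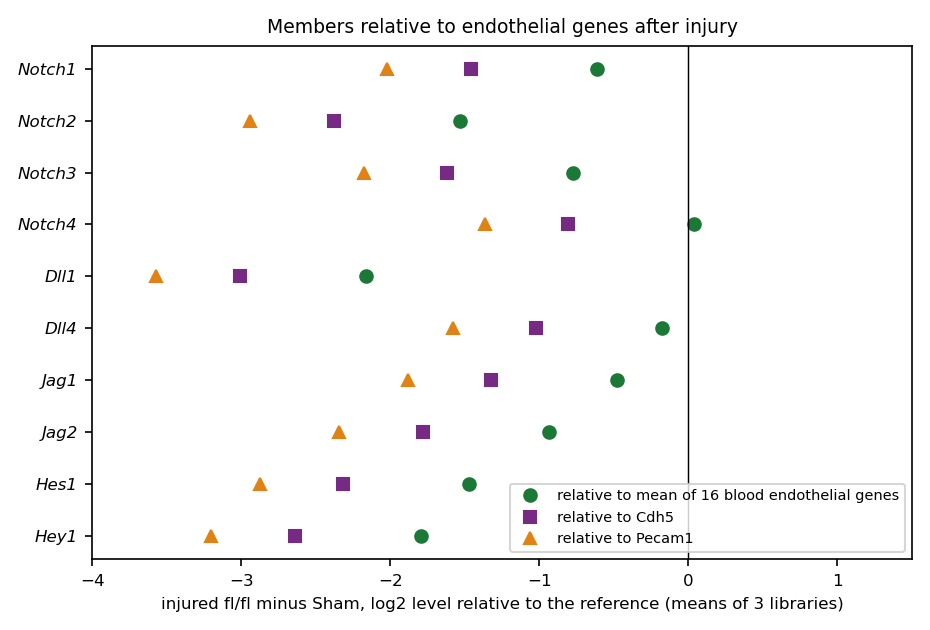
Difference between injured VEGFR3fl/fl and Sham in the log2 level of each Notch gene relative to an endothelial reference (horizontal axis, means of 3 libraries). Circles use the mean of 16 blood endothelial genes, squares Cdh5 and triangles Pecam1. With the 16-gene mean Notch4 lies at 0.04 and Dll4 at -0.17, and with Cdh5 or Pecam1, which rose more than any of the 10 genes, all 10 lie below 0. Both also rose more than the 16-gene mean, whereas Kdr, of the same list and not shown alone, rose less than Notch4, Dll4, Jag1 and Notch1.

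Between the injured groups the 16-gene mean itself differed by -0.14 on the log2 scale, so a gene without change would lie above it. Relative to this mean the differences of all 10 Notch genes lay above 0, from 0.03 for Hes1 to 0.70 for Dll1. Only for Notch1 (0.29), Notch2 (0.38) and Hey1 (0.36) did the groups not overlap (exact permutation test for each, two-sided, p = 0.1), and 24.9% of all genes were higher on this scale without overlap. No direction is read from these differences for the genes that overlapped. Against Cdh5 alone the 10 values lay between -0.20 for Hes1 and 0.47 for Dll1, and every gene overlapped.

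Levels of different genes were compared per length as approximate TPM, from the longest GENCODE transcript of each gene. In Sham irises Hes1 was highest at 164 ± 14.3 (SD, n = 3), followed by Notch2 at 42.8 ± 7.87, and neither overlapped with the next gene. Below them stood Hey1 (24.3), Notch3 (21.8), Dll1 (18.2), Dll4 (13.6), Notch1 (13.2), Notch4 (12.3), Jag1 (11.9) and Jag2 (10.2), and each of these neighbors overlapped in their libraries. In injured VEGFR3fl/fl irises the order was Hes1 (112), Notch2 (27.5), Notch4 (25.8), Notch3 (24.9), Dll4 (24.6), Jag1 (16.5), Notch1 (16.3), Hey1 (13.3), Jag2 (10.4) and Dll1 (7.64). Notch4 thus stood higher in the order than in Sham irises and Dll1 stood last, but below Hes1 all neighbors overlapped. In labelled VEGFR3iLECko irises Hes1 stood at 120, Notch2 at 36.1, Notch3 at 32.8 and Notch4 at 29.2, and Dll1 (12.5) and Jag2 (12.4) were lowest. The order depends on the length used. With the median transcript length, which for Notch1, Notch3 and Notch4 is that of short partial transcripts, Notch1 would stand at 129 and Notch3 at 102 in Sham irises.

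Other parts of the pathway were read from a list of 55 genes, of which 52 were tested. Dll3, Dlk2 and Hes2 did not pass the filter. After injury 10 rose and 14 fell by edgeR, or 46.2% of those tested against 60% of all genes, and their median log2 fold change was -0.02. By role, 2 of 5 glycosylation enzymes rose and 1 fell, 3 of 10 cleavage components rose and 3 fell, 0 of 8 corepressors rose and 3 fell, and 2 of 10 turnover factors rose and 4 fell.

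The Fringe enzymes, which add sugars to Notch and alter its response to Delta-like and Jagged ligands, moved apart. Lfng measured 6.14 to 6.70 CPM in Sham and 30.5 to 44.2 CPM in injured VEGFR3fl/fl libraries, a log2 fold change of 2.55, and Mfng rose by 1.49, whereas Rfng fell by 0.45 on the log2 scale. Among enzymes that cut the receptor, Adam17 rose by 1.09 and Adam10, the main protease of ligand-induced cleavage, changed by -0.40. Of γ-secretase, the subunit genes Aph1c and Aph1b changed by -1.08 and -0.63, Ncstn rose by 0.28, and Psen2 (0.08) was not called. The Ncstn call was lost with scaling by library size alone, where the log2 fold change was 0.11, and without Sham replicate 3, injured replicate 2 or injured replicate 3.

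In the nucleus, Rbpj rose by 0.51 on the log2 scale, a call lost with scaling by library size alone (edgeR adjusted p = 0.0572), Maml3 changed by -0.58, and Maml1 (0.11) and Maml2 (0.07) were not called. Neurl1b, a ubiquitin ligase that acts on ligands, rose by 1.81, and Dtx3l, of the Deltex family, by 1.31. Dtx1, also a Deltex gene and a known Notch target in lymphocytes, changed by -1.68, from 81.5 to 98.2 CPM in Sham to 22.3 to 34.5 CPM in injured VEGFR3fl/fl libraries. Aak1, an endocytic kinase, changed by -1.24, and this call was lost in 5 alternatives.

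The further target genes did not share a direction. Nrarp, a feedback inhibitor induced by Notch, measured 8.86, 7.002 and 8.44 CPM in Sham, 11.95, 26.8 and 25.3 CPM in injured VEGFR3fl/fl and 22.7, 27.2 and 31.2 CPM in labelled VEGFR3iLECko libraries. Its log2 fold change after injury was 1.40 (standard error 0.28, edgeR adjusted p = 0.00208), with injured VEGFR3fl/fl replicate 1 again the lowest injured library. Hes5 fell from 22, 33 and 15 counts in Sham to 0, 3 and 2 counts in injured VEGFR3fl/fl libraries. Its log2 fold change was -3.65 (95% interval -5.50 to -1.79, edgeR adjusted p = 0.0040). The ratio of summed counts of Sham to injured was 13.3, with a 95% counting interval from 5.45 to 42.3 that leaves out the spread between pools. Hes5 had 9, 1 and 3 counts in labelled VEGFR3iLECko libraries. Hey2 (-0.37) and Heyl (0.25) were not called.

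**Figure D5:**
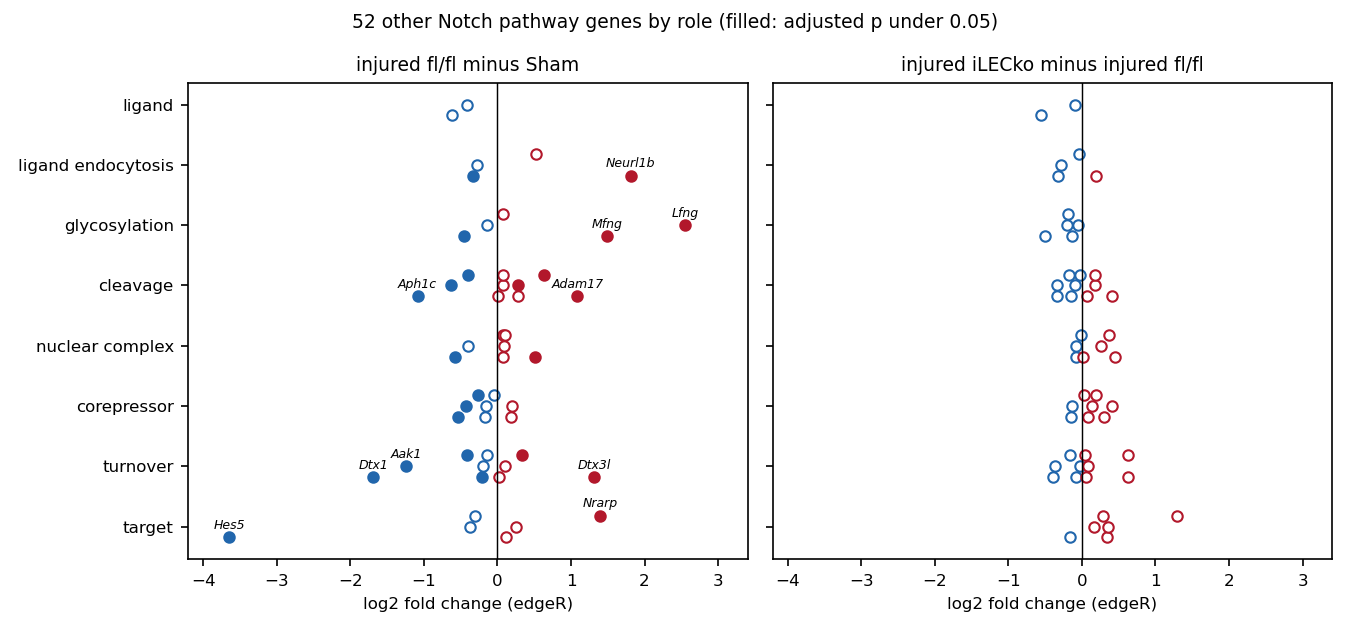
Log2 fold changes from edgeR (horizontal axes) of 52 further Notch pathway genes, 1 point each, by role along the vertical axis. Red points lie above 0, blue points below 0, and filled points have an adjusted p under 0.05. Lfng (2.55) and Hes5 lie farthest out after injury, and 0 points are filled for labelled VEGFR3iLECko minus injured VEGFR3fl/fl.

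In labelled VEGFR3iLECko against injured VEGFR3fl/fl irises, 0 of the 52 pathway genes were called by edgeR, where 1.56% of all genes were, and 14 had an unadjusted p under 0.05, as did 24.5% of all genes. The values nearest to the threshold were those of Dtx1, at a log2 fold change of 0.63 (edgeR adjusted p = 0.0685), Lfng, at -0.50 (0.0737), and Aph1b, at 0.42 (0.0973), named after their values were seen. The groups did not overlap for these 3 genes, as for 26.7% of all genes. DESeq2 called all 3, or 3 of 52, and 9.47% of all genes, and on the 6 compared libraries it called 1 of 52 and 5.48% of all genes.

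The genes whose log2 CPM followed each Notch gene most closely over the 9 libraries were searched among genes with a mean of at least 5 CPM. These correlations describe libraries that share the injury contrast and carry no test. Dll4 was followed most closely by Pdgfb (Pearson r = 0.98), the endothelial growth factor that recruits pericytes, and Galnt16 (0.97). Notch4 was followed by the cyclin gene Ccna2 (0.99) and Cd38 (0.99), Notch1 by the myeloid receptor gene Trem1 (0.99) and Arhgef28 (0.99), Notch3 by Tmem131 (0.996) and Prep (0.99), and Jag1 by Filip1l (0.99) and Rnf115 (0.99). Trem1 had only 0.166, 0.0565 and 0.338 CPM in Sham, near the floor, so its r rests in part on such values. Hey1 was followed by the growth factor gene Bmp4 (0.99) and Slc25a23 (0.98), Hes1 by Dagla (0.93) and Cc2d1a (0.90), Notch2 by Hivep1 (0.95) and Hipk1 (0.94), Dll1 by Tmem132b (0.95) and Ttll5 (0.94), and Jag2 by Slc6a7 (0.97) and Ipmk (0.97). Among the 45 pairs of the 10 genes themselves, r ran from -0.77, for Notch4 and Dll1 and for Jag2 and Hes1, to 0.98, and was 0.98 between Notch1 and Jag1, 0.97 between Notch4 and Jag1 and 0.96 between Notch4 and Dll4.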

How the data were processed

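Iris RNA was sequenced in 9 libraries, as single-end reads of 50 bases. The submitters' processing notes name the mm10 build, HISAT2 2.0.4 and, as a further aligner, Bowtie2 2.2.5. The program that estimated the counts, its annotation and its use of strand are not given in the sources used here. The deposited values are estimated counts per gene, not normalized by the authors; 9.83% to 10.3% of each library's values carried decimals, and all were rounded here. Depth was 16617187 to 18306359 counts per library. Groups were taken from titles, treatments and descriptions; the genotype tags of 2 injured VEGFR3iLECko libraries name another VEGFR number and were not followed.

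Genes were selected with filterByExpr and fitted together over 9 libraries with edgeR 4.0.16 in R 4.3.3 (TMM factors 0.90 to 1.09, quasi-likelihood F test, group as the only term), with Benjamini-Hochberg adjustment over 15010 genes. A gene was called at an adjusted p below 0.05, and calls of over 1.5-fold were counted separately. Each standard error is the log2 fold change divided by the root of its F statistic, and 95% intervals follow from it. Ratios used counts plus 0.5. Approximate TPM used GENCODE M21 lengths, found for 97.6% of genes. Counts of replicates differed by more than counting noise (chi-square per degree of freedom 5.30 to 79.3). The procedure was tested on simulated data.

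The 10 genes, the pathway and marker lists and the tests were chosen with earlier results of these data known. All 10 genes are named. Of the other pathway genes, up to 6 called genes with the largest rise and the largest fall in the injury comparison and the comparison of the injured groups, and 17 set components, were named, and for each of the 10 genes the 2 with the highest Pearson r. Alternatives covered normalization (RLE, upper quartile, library size only), filters, DESeq2 1.42.0, limma-voom (limma 3.58.1), fits of 6 libraries, a replicate block, Y-linked expression, the pseudocount, the endothelial reference, transcript length and leaving out each library. A covariate for neural retina markers was added after seeing the data. The result of 1 named component is not reported here.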

Additional observations from a re-analysis of the deposited data

How the results depend on the processing

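Notch1, Notch4, Dll4, Jag1 and Hey1 kept their direction and call after injury in all 22 alternatives, and Notch2 and Dll1 in 18. With library size only, the median of all genes shifted to -0.16 (log2) after injury. Of the 52 other pathway genes 22 were then called lower, as were 5767 of all 15010 genes. Maml1 (-0.063), Maml2 (-0.10) and Psen2 (-0.095) turned negative. In that scaling 16 pathway genes, and 5029 of all genes, were called lower in labelled VEGFR3iLECko against Sham irises. Hes1 was 0.0020 between the injured groups. Over 1.5-fold higher after injury were 3 of the 10 genes in place of 4 with upper quartile scaling, library size only or the Y-linked covariate and without Sham replicate 2, injured replicate 2 or injured replicate 3, and 5 without injured replicate 1. Over 1.5-fold lower were 2 of the 10 genes with upper quartile scaling, library size only or the retina covariate, under which Maml2 was -0.011. The share of all genes over 1.5-fold was not counted in these settings. In the main fit Notch1 (1.51-fold higher) and Hey1 (1.498-fold lower) lay close to the limit, so nothing particular to the 10 genes is read from these counts. With the Y-linked covariate, 1 of the 10 genes was called higher and 1 over 1.5-fold in each direction against Sham in labelled VEGFR3iLECko irises. Of the pathway genes 5 were called higher and 2 lower there, and of all 15010 genes 2693 higher and 2056 lower. Under this covariate Notch4 (-0.069), Jag1 (-0.019) and Hes1 (0.10) turned between the injured groups. Between these groups, DESeq2 called 2 pathway genes higher and 1 lower, and 9.47% of all genes, and on 6 libraries 1 higher and 5.48% of all genes, where edgeR called 0. Of all genes, edgeR called 0 of 14677 between these groups on 6 libraries, and 0 higher and 2 lower of 15010 with the Y-linked covariate. Against Cdh5 or against Pecam1 alone, 1 of the 10 genes lay below the reference in labelled VEGFR3iLECko irises, against 0 with the list. The cause of these changes was not tested.

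Leaving out each library in turn, the number of the 10 genes called lower after injury was 1 to 3, 1 without Sham replicate 1 or injured replicate 2, and 0 to 2 over 1.5-fold. Of all genes, 3689 to 4326 were called lower over the 9 fits. The number was 3724 of 15151 without Sham replicate 1 and 3997 of 15154 without injured replicate 2. Shares of all genes over 1.5-fold were not counted in these fits. Called lower against Sham in labelled VEGFR3iLECko irises was 0 to 1 gene, as Hey1 lost its call without Sham replicate 1, Sham replicate 2 or labelled VEGFR3iLECko replicate 3. Of all genes, 3201 to 4276 were called lower in that comparison. Below the endothelial list between the injured groups were 0 to 2 genes, and 0 to 1 pathway genes were called in each direction, Dtx1 as higher without injured replicate 2 and Lfng as lower without injured replicate 1. Of all genes, 0 to 222 were called higher and 0 to 189 lower between these groups over the 9 fits. Without injured replicate 2, 125 of 15154 were higher, and without injured replicate 1, 80 of 15201 were lower. Between the injured groups, Notch4 ranged from -0.23 to 0.33, Dll4 from -0.20 to 0.50, Jag1 from -0.038 to 0.22, Jag2 from -0.046 to 0.26 and Hes1 from -0.36 to 0.17. After injury Heyl ranged from -0.081 to 0.46, Maml2 from -0.032 to 0.19 and Psen2 from -0.041 to 0.14.

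Replicate numbers did not pair the libraries: deviations of same-numbered libraries correlated at -0.38 to 0.11. With the replicate number as a block, the 10 genes were again called higher 4 times and lower 3 times after injury. Of all 15010 genes, 4426 were then called higher and 4054 lower. Between the injured groups 0 of the 10 were called in that fit, where only 11 of all genes were called higher and 13 lower. Against Sham in labelled VEGFR3iLECko irises 6 of the 10 were higher and 1 lower, beside 3968 and 3649 of all genes. Of the pathway genes 13 in place of 14 were called lower after injury. With 3 libraries per group, the 95% intervals limit what the comparison of the injured groups could detect.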
